A study of Mus musculus with 12 samples.

Results

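The constitutive proteasome was followed here through the genes of its core and regulatory particles in spheroids of primary mouse hepatocytes at culture days 1, 7 and 14. Members were all genes with a probe set whose symbol starts with Psma, Psmb, Psmc or Psmd and a number, leaving out the interferon-inducible subunits Psmb8, Psmb9 and Psmb10. The rule found 34 of the 11861 genes measured, 13 of the core particle (Psma and Psmb) and 21 counted with the regulatory particle (Psmc and Psmd). Of these, 30 encode standard subunits of the particle. The other 4 share only the symbol: Psmd5, Psmd9 and Psmd10 encode chaperones that help to assemble the base, and Psmc3ip encodes a meiotic recombination factor named after its binding to Psmc3. Psmb5 was not analysed here. In the 3 comparisons between days, 0 of the 34 members passed the test. Of all genes 4.72%, 0.489% and 14.4% passed for day 7 against 1, 14 against 7 and 14 against 1. None of the 30 standard subunits had a change whose 95% interval reached 1.5-fold in either direction. The same held for 94.5%, 96.4% and 91.9% of the genes at the same levels.

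The spheroids were self-formed aggregates in low-attachment plates, made from 4 frozen preparations of C57BL/6 hepatocytes, 2 male and 2 female. Each preparation was a pool of cells from 3 mice. All 4 preparations were sampled at each day, which gave 6 groups (male or female at day 1, 7 or 14) with 2 arrays each, and the labels name no treatment other than time in culture. The age of the animals is not given in the sources used here. Fresh liver and cells in flat culture were not analysed here, so day 1 spheroids are the earliest reference.

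The proteasome is the barrel-shaped protease that breaks down most short-lived and damaged proteins of a cell after they have been tagged with ubiquitin. Its core particle stacks rings of alpha subunits, which gate the entrance, on rings of beta subunits, some of which carry the cutting sites. The regulatory particle caps the barrel: the ATPases of its base unfold the substrate and thread it into the core, and its lid removes the ubiquitin chain. The subunits are needed in fixed proportions, and their genes are known to be driven together by the transcription factor NRF1 (Nfe2l1) when the proteasome is inhibited. In hepatocytes it also disposes of misfolded secretory proteins.

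Values are log2 levels of the authors, 1 per probe set and array, and each member had a single probe set. Array medians lay between 7.47 and 7.53. The 30 standard subunits had means from 8.66 (Psmb3) to 10.91 (Psmd8), well above 4.79, the level that every deposited probe set reached on at least 1 array and below which a value is taken as near the background. Psmc3ip was the exception among the members: its values ran from 4.41 to 5.26, so it sat at that level. It may have entered the table through its higher arrays, but the sources used here give no filter. Hepatocyte markers were present throughout (9 of 10 measured, and only Cyp2e1 had a day mean under 4.79, at day 14). Markers of other liver cells moved with culture day. By day 14 against day 1, 6 of 10 stellate cell and fibroblast markers and 4 of 7 endothelial markers were lower by limma. Called higher were 1 of 10 Kupffer cell and macrophage markers and 2 of 4 cholangiocyte markers, where 14.4% of all genes were called. The other 2 cholangiocyte markers were not called but lay lower in all 4 preparations. With the preparation as a block, 6 stellate, 5 endothelial and 1 cholangiocyte marker were called lower. That fit called 8 macrophage and 2 cholangiocyte markers higher, and 14% of all genes in either direction. The log2 of the summed stellate marker levels ran from 11.56 to 11.76 over the arrays of day 1 and from 8.52 to 11.26 over those of day 14. The same sum ran from 8.61 to 9.28 and from 7.20 to 8.66 for the endothelial markers, from 7.51 to 8.85 and from 8.68 to 10.98 for the macrophage markers, and from 10.35 to 10.77 and from 10.03 to 10.58 for the cholangiocyte markers. Means under 4.79 were found at day 1 for Adgre1, Clec4f, Csf1r, Marco, C1qc, Krt19 and Epcam, at day 7 for Adgre1, Pecam1, Cdh5, Kdr, Des and Epcam, and at day 14 for Adgre1, Clec4f, Pecam1, Cdh5, Kdr, Clec4g, Lrat, Des and Epcam. Of the lymphocyte markers 0 of 10 were among the genes measured. The part of these shifts in the values of the proteasome genes was not tested. In a mixed sample, fewer cells of a type and less RNA per cell cannot be told apart.

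The proteasome genes varied little over the arrays. The highest and lowest of the 12 arrays differed by less than 0.5 log2 units for all 30 standard subunits, and the median range was 0.26. Psmd8, a lid subunit, had the narrowest range (0.147) and Psmd14, the deubiquitinase of the lid, the widest (0.41). Among the 2862 genes whose means lay between those of Psmb3 and Psmd8, 73.9% stayed under 0.5, and among all genes 41.1% did. The median SD over the 12 arrays was 0.079 for the standard subunits and 0.112 for the genes at the same levels. Core and regulatory particle were alike in this measure, with median SDs of 0.078 over 13 members and 0.084 over 21. Among the subgroups, the lid (0.069 over 8 members) and the beta ring (0.064 over 6) had lower median SDs than the alpha ring (0.085 over 7) and the ATPases (0.085 over 6). The members that are not subunits had a median SD of 0.133.

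**Figure D1:**
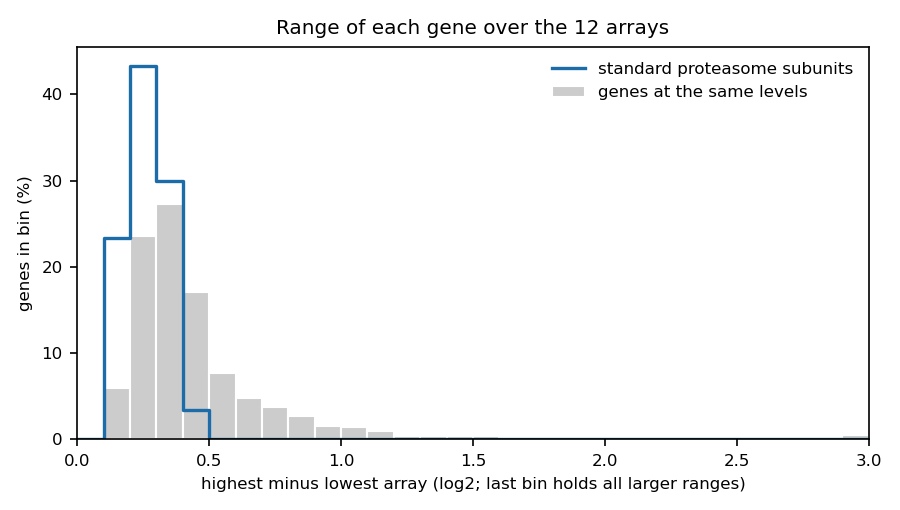
Range of each gene over the 12 arrays (x axis, highest minus lowest log2 level) as the percentage of genes in each bin of 0.1 (y axis); grey bars show the 2862 genes at the levels of the standard subunits and the blue line the 30 standard subunits. All 30 lie under 0.5, where 73.9% of the grey genes lie.

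Day 7 against day 1 asked what the first week of culture did. In the core particle, 0 of 13 members were called higher and 0 lower by limma at an adjusted p under 0.05, and in the regulatory particle 0 of 21 and 0 of 21, where 4.72% of all genes were called in either direction. At an unadjusted p under 0.05 there were 2 of 34 members (5.88%), against 19.5% of all genes. The changes, each averaged over the sexes, had a median of -0.02 for the core particle and -0.02 for the regulatory particle, and -0.0004 over all genes. The alpha ring leaned below 0 with 6 of 7 members, Psma6 being the exception, and a median of -0.07, while the beta ring had 3 of 6 on each side and a median of 0.03. In the lid 6 of 8, among the ATPases 4 of 6 and among the other base subunits 3 of 3 had values below 0, with medians of -0.04, -0.02 and -0.06. Of all 11861 genes 5941 lay below 0.

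Psma6, an alpha subunit, had the smallest p of the core in that week. At day 1 it stood at 9.76, 9.64, 9.74 and 9.59 in male 1, male 2, female 1 and female 2, and at day 7 at 9.80, 9.91, 9.89 and 9.79. The arrays of the days did not overlap, and each preparation stood higher at day 7, by 0.04, 0.26, 0.15 and 0.20. The mean difference was 0.16 ± 0.07 (SE, n = 4 per day, limma adjusted p = 0.218). Psma7, another alpha subunit, differed the other way by -0.14 ± 0.06 (adjusted p = 0.29). It stood at 9.92, 9.95, 10.01 and 9.82 at day 1 and at 9.84, 9.77, 9.82 and 9.73 at day 7. Each preparation was lower at day 7, but the ranges met, since female 2 at day 1 lay below male 1 at day 7. Psma5 was lower in all 4 preparations as well (-0.12 ± 0.07), and Psmb6, one of the catalytic beta subunits, was higher in all 4 (0.08 ± 0.06).

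Psmc1, an ATPase of the base, had the smallest p of all members in the first week. Its day 1 values were 10.03, 10.02, 10.03 and 9.95 and its day 7 values 9.88, 10.03, 9.75 and 9.69, so that male 2 stayed level while the other three preparations were lower. The difference was -0.17 ± 0.06 (limma adjusted p = 0.195). Psmc4, also an ATPase, went from 10.73, 10.63, 10.63 and 10.53 to 10.48, 10.52, 10.53 and 10.48. All 4 preparations were lower and the days did not overlap, with a difference of -0.13 ± 0.06 (adjusted p = 0.264). Psmd11, the lid subunit that clamps the lid to the core, was the other regulatory member lower in all 4 preparations (-0.09 ± 0.05). In all, 6 of 34 members (17.6%) had 1 direction in all 4 preparations, where 29.1% of all genes did, and 2 (5.88%), Psma6 and Psmc4, had days that did not overlap, where 10.4% of all genes did.

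**Figure D2:**
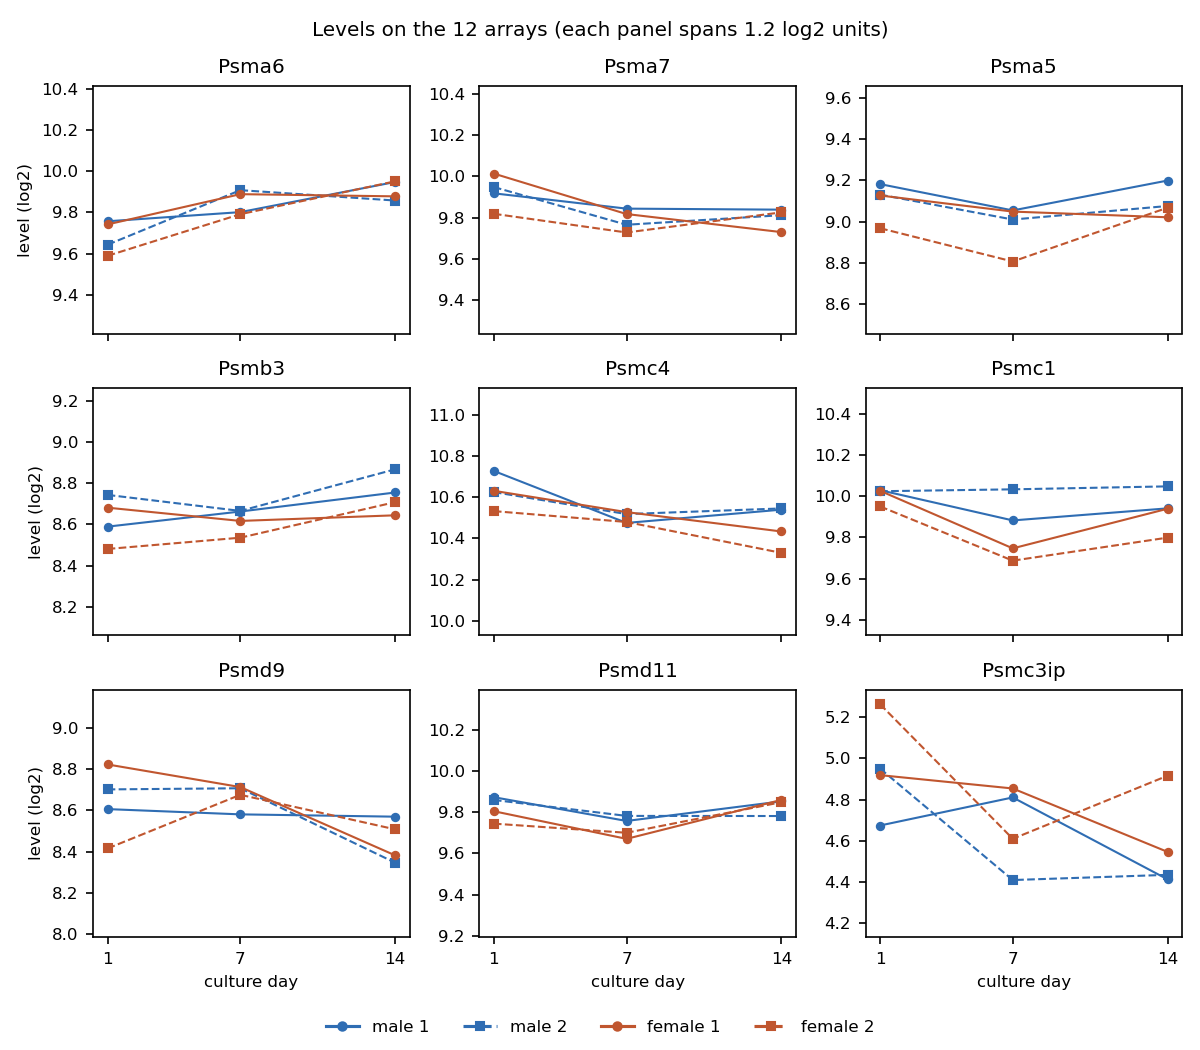
Log2 level (y axis) against culture day (x axis) for 9 members, 1 line per preparation. Each was among the 2 members with the smallest p of its particle in a comparison. Male preparations are blue and female orange. Male 1 and female 1 are solid with circles, male 2 and female 2 dashed with squares. Psma6 lies lowest at day 1 in every preparation, and Psmc3ip lies near 4.79 throughout.

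Day 14 against day 7 asked what the second week added. Again 0 of 13 core and 0 of 21 regulatory members passed by limma in either direction, where 0.489% of all genes were called. There were 0 members at an unadjusted p under 0.05, against 13.7% of all genes. The median change was 0.02 for the core and -0.01 for the regulatory particle (0.01 over all genes), and 10 of 13 core members but 9 of 21 regulatory members had values above 0. In the beta ring 5 of 6 and in the alpha ring 5 of 7 were above 0, whereas 5 of 6 ATPases were below. The lid had 4 of 8 and the other base subunits 2 of 3 above 0, and of all 11861 genes 6264 were above.

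In the core, Psmb3, a structural beta subunit, stood at 8.66, 8.66, 8.62 and 8.53 in male 1, male 2, female 1 and female 2 at day 7 and at 8.75, 8.87, 8.64 and 8.71 at day 14. It was higher in each preparation and the ranges of the days met, with a difference of 0.12 ± 0.07 (limma adjusted p = 0.489). Psma5, an alpha subunit, came next at 9.05, 9.01, 9.05 and 8.81 and then 9.20, 9.08, 9.02 and 9.07. Here female 1 alone was lower at day 14, and the difference of 0.11 ± 0.07 (adjusted p = 0.569) was close in size to its value of -0.12 in the first week, so that day 14 lay 0.01 below day 1.

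Among the Psmc and Psmd genes, the assembly chaperone Psmd9 had the smallest p of the second week. It went from 8.58, 8.71, 8.71 and 8.68 at day 7 to 8.57, 8.35, 8.38 and 8.51 at day 14. All 4 preparations were lower and the days did not overlap, though male 1 differed by 0.01 alone. The mean difference was -0.22 ± 0.10 (limma adjusted p = 0.38). Psmd11 stood at 9.76, 9.78, 9.67 and 9.70 at day 7 and at 9.85, 9.78, 9.86 and 9.85 at day 14, level in male 2 and higher in the other three, with a difference of 0.11 ± 0.05 (adjusted p = 0.399). Of the 34 members 6 (17.6%) had the same direction in all 4 preparations, against 24.5% of all genes. Psmd9 was the only 1 (2.94%) with days that did not overlap, against 5.21% of all genes.

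Day 14 against day 1 spanned the whole culture and gave the most calls among all genes, 14.4%. By limma 0 of 13 core members and 0 of 21 regulatory members passed in either direction. At the levels of the standard subunits 14.4% of 2862 genes were called. At an unadjusted p under 0.05 there were 4 members (11.8%), Psma6 above 0 and Psmc4, Psmd4 and Psmc3ip below, against 28.6% of all genes. The median change was -0.01 in the core and -0.03 in the regulatory particle (0.01 over all genes). For the standard subunits the changes ran from -0.17 (Psmc4) to 0.23 (Psma6). The bound farthest from 0 among their 95% intervals was 0.38, that of Psma6, or 1.30-fold. In the first week it was 0.32 (Psmc1, 1.25-fold) and in the second 0.29 (Psmd14, 1.23-fold). So 30 of 30 standard subunits had intervals inside 1.5-fold in each comparison, as had 94.5%, 96.4% and 91.9% of the genes at the same levels for day 7 against 1, 14 against 7 and 14 against 1.

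Psma6 at day 14 stood at 9.95, 9.86, 9.88 and 9.95, above all 4 of its day 1 values given earlier. The difference from day 1 was 0.23 ± 0.07 (SE, n = 4 per day), or 1.17-fold, and limma's adjusted p was 0.0542. It did not pass, but it passed in other fits: adjusted p was 0.00997 with a trended and robust spread and 0.0357 among genes with a mean of at least 6, and 0.302 at most, with a preparation left out. Psma7 at day 14 stood at 9.84, 9.81, 9.73 and 9.83, with female 2 level with its day 1 value and the other three lower. It differed from day 1 by -0.12 ± 0.06 (adjusted p = 0.254). Both genes encode subunits that each alpha ring contains, and their changes from day 1 lay on opposite sides of 0. The remaining alpha members ran from -0.11 (Psma1) to -0.01 (Psma4), and the beta members from -0.02 (Psmb4) to 0.12 (Psmb3). The catalytic subunits Psmb6 and Psmb7 were at 0.10 and 0.10.

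Psmc4 at day 14 stood at 10.54, 10.55, 10.43 and 10.33, lower than day 1 in each preparation. The ranges met, since female 2 at day 1 lay below both male arrays at day 14. The difference was -0.17 ± 0.06, or 0.891 of the day 1 level (limma adjusted p = 0.0922), and adjusted p was 0.0205 with a trended and robust spread. Psmd4, which binds ubiquitin chains, was at -0.15 ± 0.06 (adjusted p = 0.161), and Psmd12, a lid subunit, at -0.11 ± 0.05 (adjusted p = 0.224). For both the arrays of the days did not overlap and all 4 preparations were lower at day 14. Psmc3ip, which is no subunit, stood at 4.67, 4.95, 4.92 and 5.26 at day 1 and at 4.41, 4.43, 4.55 and 4.92 at day 14. All of its preparations were lower and the ranges met, with a difference of -0.37 ± 0.14 (adjusted p = 0.106). Its day 14 mean of 4.58 lay near the background, where a change may be understated. If Psmc3ip entered the table through its higher arrays, the fall may also be overstated, so its size is uncertain. Of the lid subunits, Psmd14 was at 0.12 and Psmd7, its partner, at -0.12, each with female 1 on the other side of 0. The large scaffold subunits of the base, Psmd1 and Psmd2, were at 0.01 and 0.01. Of the other ATPases, Psmc1 was at -0.08 and Psmc2, Psmc3, Psmc5 and Psmc6 ran from -0.06 to 0.03, and Psmd3, Psmd6, Psmd8, Psmd11 and Psmd13 from -0.07 to 0.02. The chaperones Psmd5, Psmd9 and Psmd10 were at -0.02, -0.19 and 0.04. In all, 8 of 34 members (23.5%) had 1 direction in all 4 preparations, against 34.3% of all genes, and 3 (8.82%), Psma6, Psmd4 and Psmd12, had days that did not overlap, against 15.8%.

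**Figure D3:**
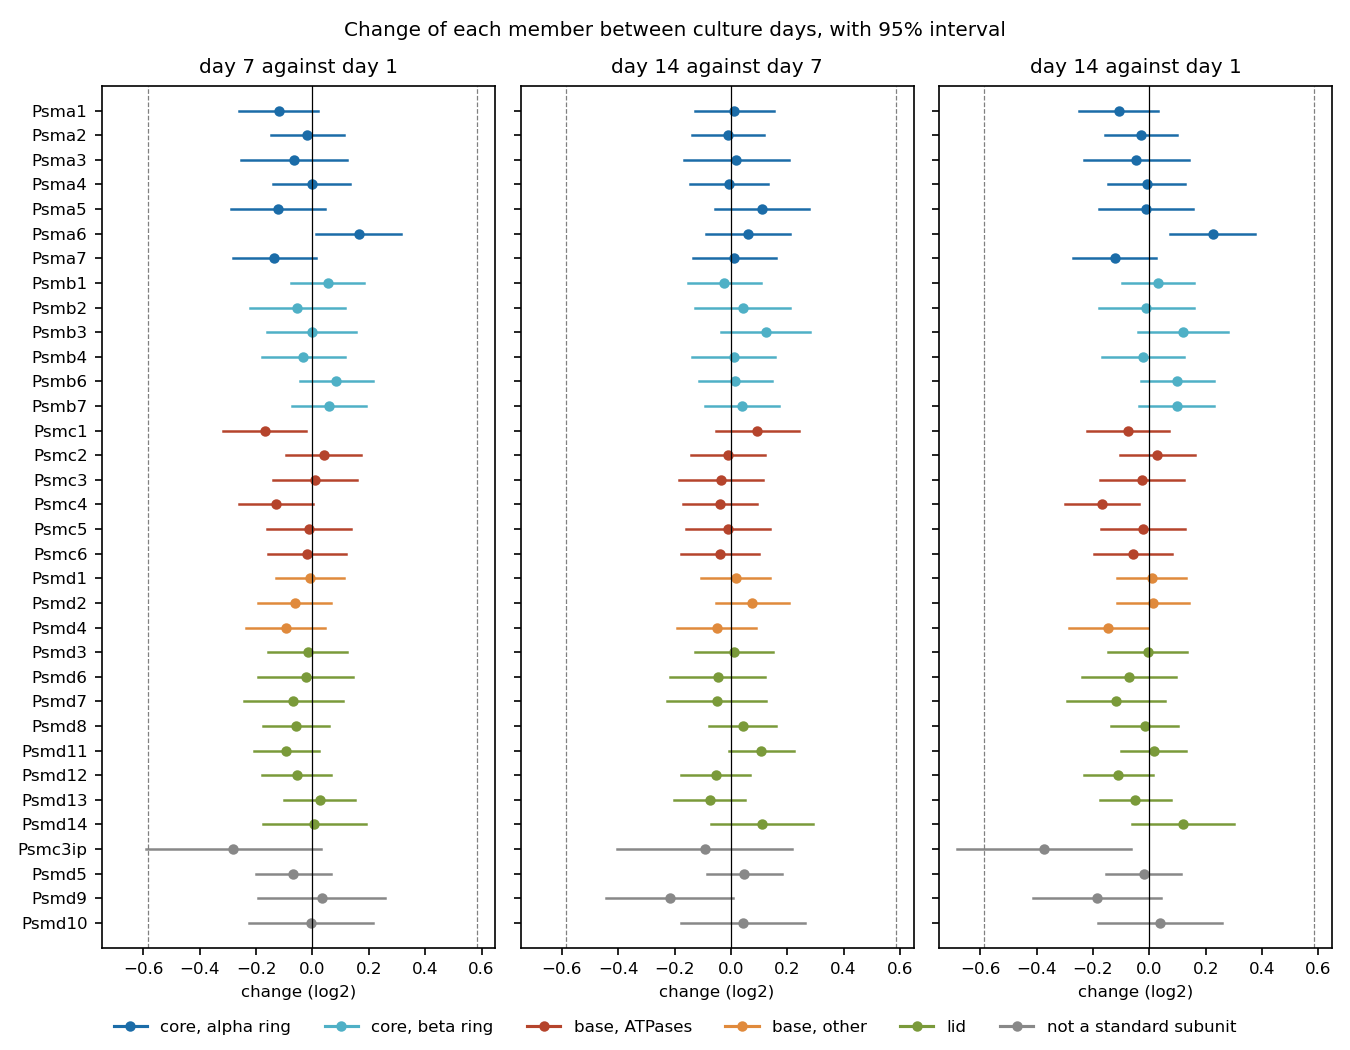
Change in log2 level (x axis) of each of the 34 members (y axis) in the 3 comparisons between days; points are the limma estimates averaged over the sexes, lines their 95% intervals, colours the position in the particle and dashed lines 1.5-fold. All intervals of standard subunits lie inside the dashed lines, and the widest interval is that of Psmc3ip.

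Within preparations the core and regulatory particles were set side by side. For day 7 against day 1 the median change of the core was -0.04, -0.02, -0.05 and 0.02 in male 1, male 2, female 1 and female 2, and that of the regulatory particle -0.01, -0.05, -0.07 and -0.06. For day 14 against day 7 the core medians were 0.05, -0.02, -0.02 and 0.09 and the regulatory medians -0.01, -0.02, -0.01 and 0.06. For day 14 against day 1 they were -0.01, -0.04, -0.07 and 0.11 for the core and -0.03, -0.05, -0.07 and 0.01 for the regulatory particle. The core median minus the regulatory median therefore lay between -0.03 and 0.10 in all 12 of these pairs, and it was above 0 in all 4 preparations for day 14 against day 1, by 0.02, 0.01, 0.005 and 0.10. This difference was described only, with no test. Female 2 stood apart: 11 of its 13 core members were above 0 for day 14 against day 1, where the other preparations had 4 to 6. Without female 2 the core median for that comparison was -0.05 and the regulatory median -0.06. The median over all genes in female 2 was 0.03, against -0.01 to 0.01 in the others. Of the 34 members, 18 had their lowest value on an array of female 2, 6 of them at day 1, 8 at day 7 and 4 at day 14. How often this held over all genes was not counted, so it is not shown to be particular to the members.

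**Figure D4:**
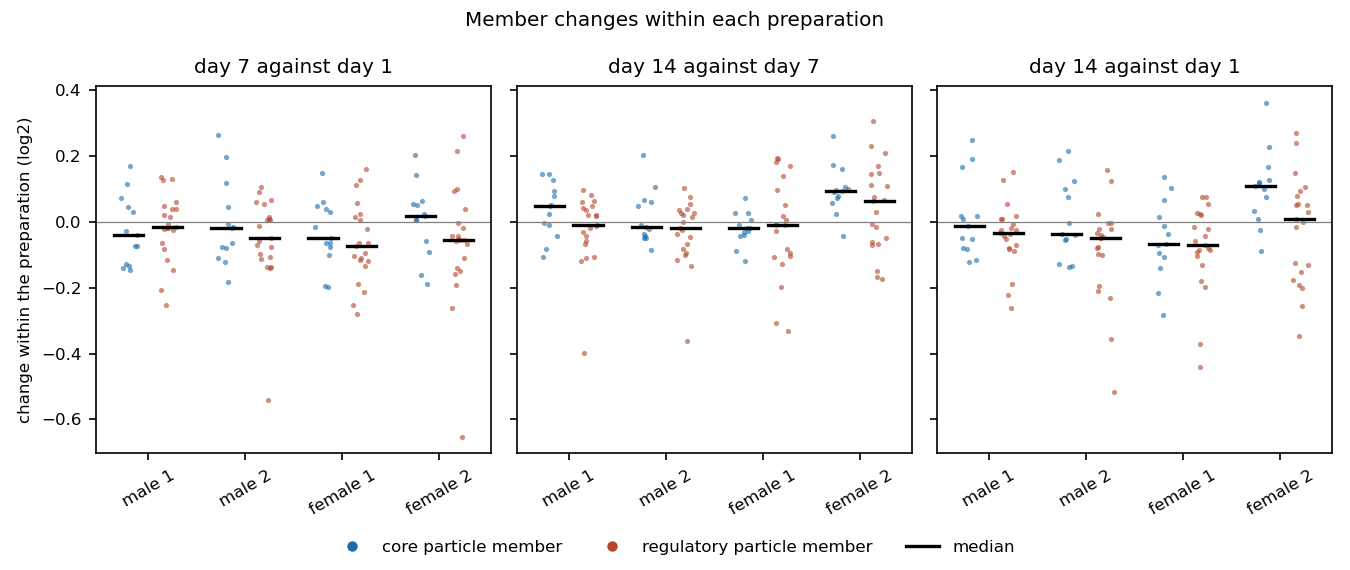
Change in log2 level (y axis) within each preparation (x axis) for each comparison between days; points are members of the core particle (blue) and the regulatory particle (red), and black bars are medians. The core median of female 2 for day 14 against day 1 lies at 0.11, above those of the other preparations.

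The sexes were compared over all days after averaging the 3 arrays of a preparation. By limma 0 of 34 members passed (smallest adjusted p = 0.218), where 0.177% of all genes were called, and 1 (2.94%) had an unadjusted p under 0.05, against 19.8% of all genes. This was Psmc3ip at -0.24 ± 0.08 (male minus female), near the background. The values of the standard subunits ran from -0.05 (Psmb1) to 0.15 (Psmd14), and 30 of the 34 members were above 0, as were 6496 of all 11861 genes. The median was 0.05 over the members and 0.02 over all genes. Members share their arrays, so their common sign is a description with no test. Psmd14 stood at 9.29 and 9.18 in the male and 9.13 and 9.04 in the female preparations, without overlap, with a difference of 0.15 ± 0.07 (adjusted p = 0.365). Psmd1 stood at 10.44 and 10.39 in males and 10.29 and 10.29 in females (0.13 ± 0.06, adjusted p = 0.333). The sexes did not overlap for 16 of 34 members (47.1%), 14 of them higher in males and 2 in females, and for 53.6% of all genes, 3514 higher in males and 2843 in females. The sex difference in a change between days passed for 0 of 34 members in each of the 3 comparisons, and for 0 of all genes (0% called in each). With the preparation as a block 0 members passed, and 1 of all genes did, for day 14 against day 1. No member had an unadjusted p under 0.05 in these tests, against 4.76%, 4.09% and 6.87% of all genes, and the median standard error of 0.123 was wide beside the changes themselves.

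Other genes of the ubiquitin and proteasome system were read from lists of related genes. In the fit without a block, 0 of the 41 measured passed in any comparison. Of all genes 4.72%, 0.489% and 14.4% passed for day 7 against 1, 14 against 7 and 14 against 1. The single lists below and the interferon-inducible subunits are part of these 41, so their counts add no separate result. At an unadjusted p under 0.05 there were 4 (9.76%), 0 and 6 (14.6%) for day 7 against 1, 14 against 7 and 14 against 1, where all genes had 19.5%, 13.7% and 28.6%. With the preparation as a block 1 (2.44%), 0 and 2 (4.88%) passed, where 4.72%, 0.852% and 14.0% of all genes did. Nfe2l1, the factor that drives subunit genes, stood at 10.28, 10.17, 10.03 and 10.15 in male 1, male 2, female 1 and female 2 at day 1, at 10.44, 10.31, 10.19 and 10.11 at day 7 and at 10.75, 10.41, 10.26 and 10.36 at day 14. Each preparation was higher at day 14 than at day 1, with male 1 highest at every day, and the ranges of the days met. The difference was 0.29 ± 0.09, with a limma adjusted p of 0.0557 without a block and of 0.0395 with the preparation as a block. It thus passed with the block and not without it. Maff, a small MAF protein that can pair with NRF1, went from 8.58, 8.57, 8.34 and 8.06 at day 1 to 8.14, 8.20, 8.03 and 7.55 at day 7 and 8.40, 8.12, 7.98 and 7.69 at day 14. Its differences from day 1 were -0.41 ± 0.13 at day 7 (adjusted p = 0.115, and 0.0369 with the block) and -0.34 ± 0.13 at day 14 (adjusted p = 0.11, and 0.0314 with the block). Of the 7 measured genes of this list, Nfe2l2, Akirin2, Mafg, Mafk and Ngly1 did not pass in either fit.

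Pomp, the chaperone that completes the core particle, came closest among 5 measured assembly factors. It stood at 10.02, 10.04, 9.97 and 9.92 at day 1, at 9.83, 9.81, 9.82 and 9.74 at day 7 and at 9.88, 9.88, 9.78 and 9.65 at day 14. All 4 preparations lay below day 1 at both later days without overlap, as 10.4% and 15.8% of all genes had no overlap in these comparisons. The differences were -0.19 ± 0.05 each (limma adjusted p = 0.0999 at day 7 and 0.0506 at day 14). With the preparation as a block, limma's adjusted p was 0.112 and 0.0642. Of the other assembly factors, Psmg1 and Psmg2 were at 0.06 ± 0.11 and 0.20 ± 0.09 for day 14 against day 1. Psmg3 and Psmg4 were at 0.22 ± 0.12 and 0.26 ± 0.16 but lay near the background, under 4.79 on 1 and 3 of the 12 arrays. A change may be understated there, and its size is uncertain. Psmg3 differed by 0.99 and 0.39 in male 1 and male 2, but by -0.45 and -0.06 in female 1 and female 2. The activators and the inhibitor had 0 of 6 past the test, and the value farthest from 0 for day 14 against day 1 was that of Psme4 (0.20 ± 0.09). Of the proteasome-bound deubiquitinases and ligases 0 of 6 passed, with Usp14 at -0.18 ± 0.06 for day 7 against day 1. Among p97 and its cofactors, which pull ubiquitin-tagged proteins out of complexes and membranes, 0 of 7 passed. Faf1 was at -0.25 ± 0.08 for day 7 and -0.21 ± 0.08 for day 14 against day 1. Of the shuttle factors that carry substrates to the particle 0 of 5 passed, and the largest value was 0.12 (Ubqln4). Of the ubiquitin genes and their activating enzymes only Uba6 was measured (0.11), and of the remaining subunits only Sem1 (0.05).

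The 3 interferon-inducible subunits that can replace catalytic beta subunits did not pass in any comparison, where at most 14.4% of all genes did. Psmb8 had means of 7.89 ± 0.10, 7.69 ± 0.18 and 7.65 ± 0.13 (SD, n = 4) at days 1, 7 and 14, and its difference for day 14 against day 1 was -0.23 ± 0.10 (SE, limma adjusted p = 0.181), higher in female 2 and lower in the other three preparations. Psmb9 and Psmb10 were at 0.08 ± 0.11 and 0.08 ± 0.11. The median SD of the 3 over the 12 arrays was 0.165, near the 0.172 of all genes.

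The promoters of the members were read for what they share, over the 250 bases before the start in RefSeq's mouse promoter table (GRCm38.p6). Windows were found for 28 of 34 members, with 2 windows each for Psma6 and Psmc2. The letters TGACNNNGC, the core of the antioxidant response element that NRF1 binds with a small MAF protein, were searched on both strands, as were CCAAT (the CCAAT box) and GGGCGG (the GC box). The antioxidant response element core was present for 4 of 28 members (14.3%), Psmb6, Psmc6, Psmd12 and Psmd9, and for 13.7% of 9644 genes of the array and 11.5% of all 27025 genes of the promoter table. A CCAAT box was present for 12 of 28 (42.9%), 6 of 10 core and 6 of 18 regulatory members, and for 40.4% of the array's genes and 37.5% of all. A GC box was present for 17 of 28 (60.7%), 5 of 10 core and 12 of 18 regulatory members, and for 61.9% of the array's genes and 35.4% of all. The members' shares were thus near those of the array's genes. In Psmd9 the letters of the antioxidant response element core overlapped those of a GC box. The windows of the 3 standard subunits with the antioxidant response element core are shown 5′ to 3′ with the match in capitals.
Psmb6, chr11:70525107-70525356, plus strand: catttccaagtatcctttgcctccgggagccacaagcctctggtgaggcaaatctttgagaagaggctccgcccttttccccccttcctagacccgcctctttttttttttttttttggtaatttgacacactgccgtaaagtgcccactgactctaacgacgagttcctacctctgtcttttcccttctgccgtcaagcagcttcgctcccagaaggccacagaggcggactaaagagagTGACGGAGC
Psmc6, chr14:45329574-45329823, plus strand: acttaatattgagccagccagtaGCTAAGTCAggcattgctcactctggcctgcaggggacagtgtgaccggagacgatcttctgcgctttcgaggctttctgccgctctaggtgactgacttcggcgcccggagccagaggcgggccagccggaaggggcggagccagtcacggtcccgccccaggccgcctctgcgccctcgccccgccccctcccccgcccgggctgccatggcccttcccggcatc
Psmd12, chr11:107479278-107479527, plus strand: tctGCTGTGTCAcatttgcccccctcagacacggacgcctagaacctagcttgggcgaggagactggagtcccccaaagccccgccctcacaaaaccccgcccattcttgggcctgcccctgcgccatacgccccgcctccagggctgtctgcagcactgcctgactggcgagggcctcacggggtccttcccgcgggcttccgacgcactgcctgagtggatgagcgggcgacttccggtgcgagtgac
The match lay with its last base 1 base before the start in Psmb6, on the plus orientation of the gene, and 219 and 239 bases before it in Psmc6 and Psmd12, on the reverse. The differences of these genes for day 14 against day 1 were 0.10, -0.06 and -0.11, none past the test.

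The windows of the core and the regulatory subunit with the smallest p for day 14 against day 1 are shown for comparison, both starts of Psma6 with CCAAT boxes and Psmc4 with GC boxes in capitals, ATTGG and CCGCCC being matches on the reverse strand.
Psma6, first start, chr12:55383972-55384221, plus strand: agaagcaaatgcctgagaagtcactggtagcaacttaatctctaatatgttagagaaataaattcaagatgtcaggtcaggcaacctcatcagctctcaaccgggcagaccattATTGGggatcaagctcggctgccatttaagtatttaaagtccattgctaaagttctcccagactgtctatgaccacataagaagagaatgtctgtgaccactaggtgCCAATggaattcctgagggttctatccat
Psma6, second start, chr12:55398575-55398824, plus strand: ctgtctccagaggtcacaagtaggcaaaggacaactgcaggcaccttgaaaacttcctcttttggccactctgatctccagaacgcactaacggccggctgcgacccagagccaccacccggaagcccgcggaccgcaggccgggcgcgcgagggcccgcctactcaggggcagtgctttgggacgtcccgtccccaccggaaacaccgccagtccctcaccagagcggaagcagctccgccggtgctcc
Psmc4, chr7:28050093-28050342, minus strand: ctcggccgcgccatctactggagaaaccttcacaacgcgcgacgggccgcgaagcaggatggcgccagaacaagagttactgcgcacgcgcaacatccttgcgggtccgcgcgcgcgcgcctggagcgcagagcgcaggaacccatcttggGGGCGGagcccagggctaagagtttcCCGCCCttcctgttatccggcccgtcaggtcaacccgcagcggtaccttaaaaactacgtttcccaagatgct
The first window of Psma6 held 2 CCAAT boxes and the second none, and none of the 3 motifs was found in the second. Psmc4 held 2 GC boxes and neither of the other motifs. A match describes the letters of the window alone, and the array does not tell which start of Psma6 was read.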

How the data were processed

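RNA of spheroids from 4 preparations at 3 days was read on 12 arrays. The deposited values are on the log2 scale, with RMA (robust multi-array averaging), Transcriptome Analysis Console 4.0 and Partek 7.0 named in the submitters' processing notes without role or order; the sources used here give no build, annotation or filter. Of 13081 probe sets 11889 had 1 symbol, 0 several and 1192 none; all 11889 matched RefSeq's gene list (GRCm38.p6, names only). For 19 symbols the probe set with the highest mean was kept. Arrays have no read depth; their number limits precision.

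Tests were two-sided, in R 4.3.3 with limma 3.58.1 and the data.table package, version 1.17.8: 1 mean per group of sex and day over all 12 arrays, eBayes without trend, Benjamini-Hochberg over 11861 genes, called at adjusted p under 0.05. Day changes average both sexes; ± on a change is the SE. Since mice were pooled, a p-value measures how pools vary and says nothing of single animals. The procedure was tested on simulated data. Days of a preparation share cells, so the preparation as a block was an alternative. The deviations of its arrays from their group means correlated at 0.0359 to 0.324 over all genes. Over the members they correlated at -0.0516 to 0.378. Other alternatives were the spread model, scaling, a level filter, probe set choice, the 8 arrays of the days compared, standard subunits alone and leaving out each preparation. Named with all array values were, per particle and comparison, called members (at most 4) or, where none was called, the 2 with the smallest p. Of each related list, called genes (at most 3) or the 1 largest change were named, with Psmb8, Psmb9, Psmb10 and Nfe2l1 always; genes named beyond this were chosen after their values were seen. Members and lists were chosen with earlier results of these data known.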

Additional observations from a re-analysis of the deposited data

Results flagged for a closer look

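Of 108 sets of 4 preparation changes (34 members and the medians of both particles, in 3 comparisons), 5 had 1 preparation far from the other three; chance gives about 1 in 20. Psmc2 differed by 0.22 in female 2 for day 7 against day 1, and by -0.02 to -0.01 in the others. Psmd13 differed by 0.03 in female 2 for day 14 against day 7, and by -0.11 in each of the others. The regulatory particle's median was 0.063 in female 2 for day 14 against day 7, and -0.02 to -0.01 in the others. For day 14 against day 1, Psmd10 differed by 0.27 in female 2 and by -0.06 to -0.02 in the others, and Psmc4 by -0.079 in male 2 and by -0.20 to -0.19 in the others. Female 2 was the preparation apart in 4 of the 5.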

How the results depend on the processing

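The counts of called members were 0 in the fit as reported and stayed 0 under all alternatives but these, for day 14 against day 1: with a trended and robust spread 1 core member was called higher (Psma6) and 1 regulatory member lower (Psmc4), and with a mean of at least 6 required 1 core member was called higher (Psma6). With the preparation as a replicate block 0 members were called, the smallest adjusted p being 0.0841 (Psma6), and the block changed no call of a member. All medians stayed within 1 SD of the preparations. Leaving out a preparation moved the core median for day 14 against day 1 between -0.05 and 0.04, so its sign is not settled, and the regulatory median between -0.06 and -0.02. Of the named member changes 0 turned direction. Of all genes, 560, 58 and 1706 were called for day 7 against 1, 14 against 7 and 14 against 1. Counts that differed by over 1.5 times were 956 and 309 with a trended and robust spread, for the first 2 comparisons, and, for day 14 against day 7, 101 with the block and 103 with a mean of at least 6. Leaving out a preparation gave 40 to 75, 0 to 8 and 494 to 826, with the lone array left in a group assumed to vary like the other groups. Psmc3ip could not be tested with a mean of at least 6. Single probe sets, Psmb5, which was not analysed here, and levels of RNA only, not protein or protease activity, limit what these values show.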
